A study of Mus musculus with 6 samples.

Results

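The 39 protein-coding Hox genes of the mouse were read out in gastrocnemius, the large calf muscle of the hindlimb. They were taken from 47967 rows of a gene count table by type and by symbol: the letters Hox, a cluster letter from a to d, and a paralog number. RNA sequencing was done on whole gastrocnemius of male C57BL/6 mice, 20 to 24 weeks of age. The high phosphate (HP) group ate a diet with 2.0% inorganic and 2.3% total phosphate over 12 weeks; the normal phosphate (NP) group ate one with 0.6% inorganic and 0.9% total phosphate over the same time. Sodium (0.9%), potassium (1.8%), calcium (1.9%) and magnesium (0.3%) were the same in both, and each group had 3 libraries. The labels do not say that each library came from its own mouse, so p-values measure only how far these samples spread, and that may be technical variation.

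Hox genes encode homeodomain transcription factors that give cells of the embryo a position along the body axis and along the limbs. They lie in 4 clusters (Hoxa, Hoxb, Hoxc and Hoxd), and genes of one paralog number in different clusters descend from one ancestor. Order within a cluster follows the order of use in the embryo: low numbers act towards the head (anterior), high numbers towards the tail and the tips of the limbs (posterior). In the mouse limb, Hoxa and Hoxd genes of paralogs 9 and 10 pattern the upper segment, those of paralog 11 the middle segment, which in the hindlimb holds the calf, and those of paralog 13 the foot. Hoxc10 and Hoxc11 are used in the hindlimb bud and not in the forelimb bud, and connective tissue cells of adults keep a Hox pattern that reflects where they arose.

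Levels between libraries are CPM (read counts scaled to library size) with the library size corrected by the trimmed mean of M-values (TMM), given per library or as mean ± SD over the 3 libraries of a diet. Log2 fold changes are HP over NP, ± SE. Of the 39 genes, 24 had a mean of at least 1 CPM over the 6 libraries, which is 19.3 counts in the smallest library and 28.2 in the largest. By cluster these were 9 of 11 Hoxa, 5 of 10 Hoxb, 7 of 9 Hoxc and 3 of 9 Hoxd genes. By position they were 1 of 8 anterior genes (paralogs 1 to 3), 13 of 15 central genes (paralogs 4 to 8) and 10 of 16 posterior genes (paralogs 9 to 13). With the line at 0.5 CPM there were 28 genes, and at a mean of 1 FPKM there were 19.

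**Figure D1:**
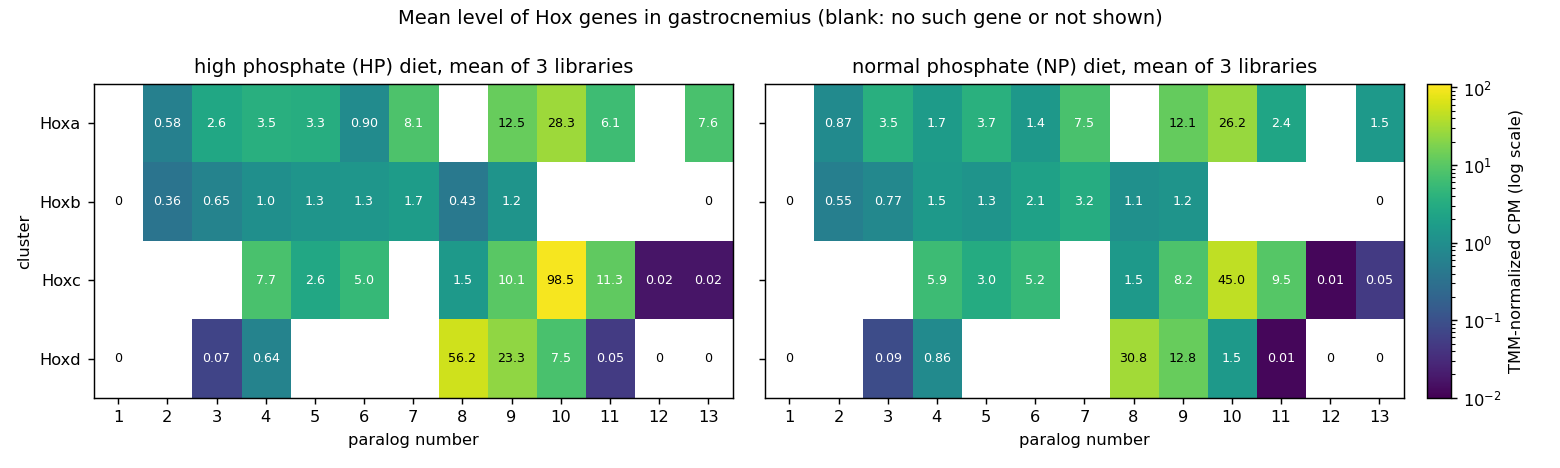
Mean TMM-normalized CPM (colour, log scale, with the value printed) of Hox genes by cluster (rows) and paralog number (columns), in the HP diet on the left and the NP diet on the right, 3 libraries each. Hoxc10 stood highest on both diets, at 98.5 CPM on HP and 45.0 CPM on NP, and the posterior ends of Hoxc and Hoxd (paralogs 12 and 13) were at or near 0.

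The order of levels between genes was read per length, from the FPKM values that the authors deposited. Over the 6 libraries Hoxc10 stood first at a mean of 32.3 FPKM, then Hoxd8 at 14.7, Hoxa10 at 10.7, Hoxd9 at 6.23, Hoxa9 at 5.27 and Hoxc11 at 4.27 FPKM. Hoxc10 and Hoxd8 also came first when TMM-normalized CPM was divided by the exon length of the GENCODE M21 annotation, at 37.6 and 15.9 CPM per kilobase. After them Hoxd9 (8.46) and Hoxa10 (8.33 CPM per kilobase) changed places. The 2 measures placed single genes up to 11 ranks apart: Hoxc5 was at rank 7 by FPKM and rank 18 by CPM per kilobase, and Hoxd4 at ranks 16 and 27.

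At the other end, 5 genes had no count in any library: Hoxb1, Hoxb13, Hoxd1, Hoxd12 and Hoxd13. A count of 0 allows up to 3 counts, or 0.106 to 0.156 CPM by library, so lower levels were not detectable at this depth. Hoxd11, Hoxc12 and Hoxc13 had between 0 and 2 counts in every library. Hoxd3 had 1, 0 and 3 counts on HP, against 2, 2 and 3 on NP. It is the least certain of the low genes, since 62.3% of its exonic bases are also annotated to genes on the same strand (Gm28230 and Hoxd4), and counting per gene may drop such reads. Hoxd4 shares 52.3% in the same way. Hoxb2 had 7, 7 and 8 counts on HP, against 8, 20 and 17 on NP. In all, 11 of the 39 genes did not pass the filter on low counts and were not tested. At the posterior end, Hoxd11 to Hoxd13, Hoxc12, Hoxc13 and Hoxb13 were thus at or near 0, while Hoxa13 was detected in every library.

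The study set muscle of mice on the HP diet against muscle of mice on the NP diet, with the effects of dietary phosphate as its question. Hoxa13, Hoxa11, Hoxd10, Hoxd9 and Hoxc10 of the posterior group rose on HP, together with the central genes Hoxd8 and Hoxa4, and the central genes Hoxb7 and Hoxb8 fell. Of the 28 genes tested, 9 (32.1%) had a Benjamini-Hochberg adjusted p under 0.05 in edgeR (called, in what follows), against 49.3% of all 15347 genes tested. Higher were 7 (Hoxa4, Hoxa11, Hoxa13, Hoxc10, Hoxd8, Hoxd9 and Hoxd10), or 25% against 23.0% of all genes. Lower were 2 (Hoxb7 and Hoxb8), or 7.14% against 26.3%. The median log2 fold change of the 28 was 0.030, against -0.016 over all genes tested. With this scaling the share of Hox genes called was below that of all genes, and the share called higher was close to it; on the FPKM values both comparisons turned, and with size scaling only the second did. At a change of at least 2-fold, 5 of the 28 were higher and 1 of the 28 was lower, against 4.47% and 13.5% of all genes. At this size of change and with TMM scaling, the Hox share was above that of all genes for increases and below it for decreases. Under other settings given below, Hoxa4, Hoxa11 and Hoxc10 fell to log2 fold changes as low as 0.37, 0.55 and 0.68, under 2-fold. The decrease of Hoxb8 shrank to -0.31 at the least. Hoxa13 and Hoxd10 stayed above 2-fold under every setting, at 1.16 and 1.15 or more. The 3 libraries of one diet lay wholly above or below those of the other in 14 of the 28 (50%), against 62.4% of all genes; HP was above in 8 (30.3% of all genes) and below in 6 (32.1%). The filter's line of 0.433 CPM applies to counts scaled to library size before the TMM correction. All 28 had 3 NP libraries above that line, but Hoxa2, Hoxb3, Hoxb8 and Hoxd4 had fewer than 3 HP libraries above it. They passed mainly through NP, so these counts do not cover all Hox genes evenly.

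**Figure D2:**
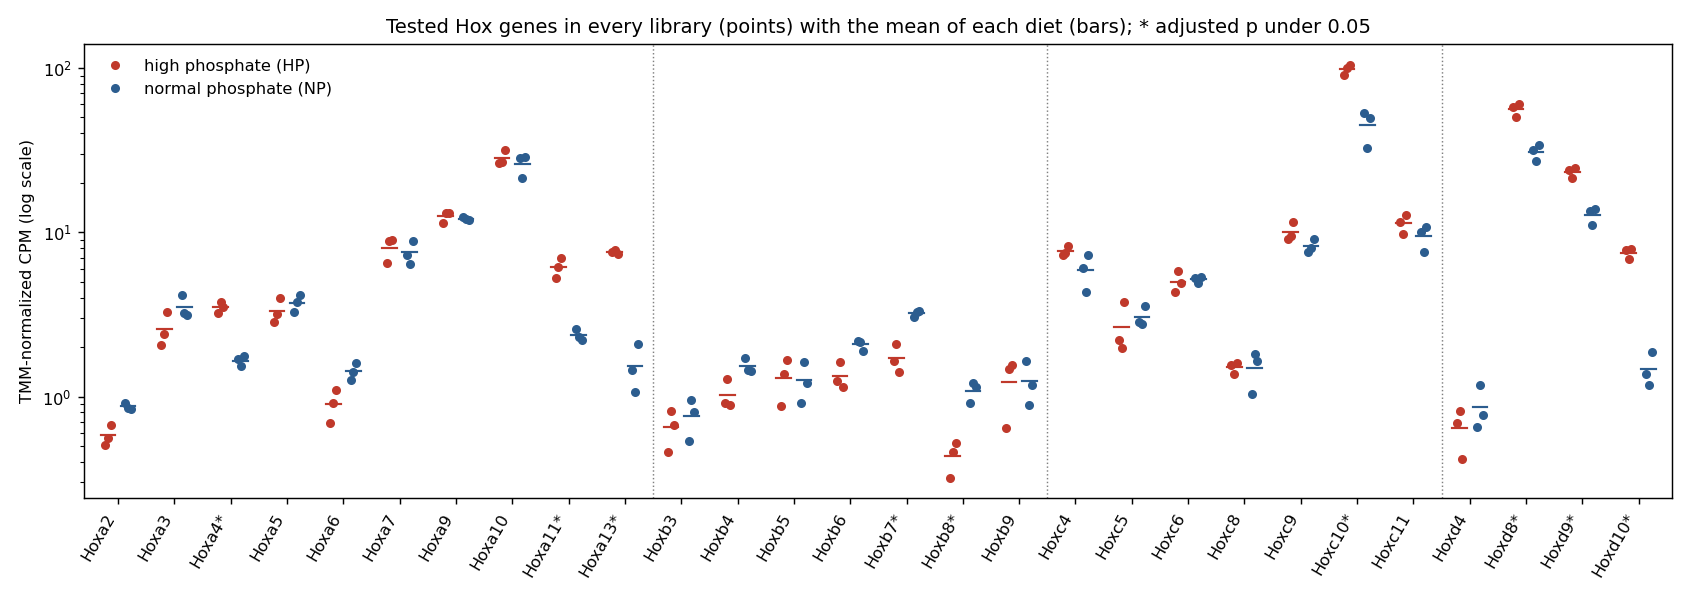
TMM-normalized CPM (log axis) of the 28 tested Hox genes in each library, HP points left of NP points, with a bar at the mean of each diet and dotted lines between the clusters. Hoxa13 and Hoxd10 show the widest gaps with HP above NP: Hoxa13 at 7.58 CPM on HP and 1.54 CPM on NP, and Hoxd10 at 7.52 and 1.47 CPM.

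Promoters are shown for genes at both ends of the change: Hoxa13, Hoxa11 and Hoxd10, which rose, and Hoxb8, which fell. RefSeq promoters (GRCm38.p6) were at hand for 6 of the 9 called genes. Each line gives the 250 bases before RefSeq's start of the gene, 5′ to 3′ on the gene's strand, at chr6:52260881-52261130 (minus) for Hoxa13, chr6:52245811-52246060 (minus) for Hoxa11, chr2:74691641-74691890 (plus) for Hoxd10 and chr11:96281655-96281904 (plus) for Hoxb8. Capitals mark matches on either strand to the GC box (GGGCGG), the CCAAT box (CCAAT) and the TATA box (TATAAA).
Hoxa13: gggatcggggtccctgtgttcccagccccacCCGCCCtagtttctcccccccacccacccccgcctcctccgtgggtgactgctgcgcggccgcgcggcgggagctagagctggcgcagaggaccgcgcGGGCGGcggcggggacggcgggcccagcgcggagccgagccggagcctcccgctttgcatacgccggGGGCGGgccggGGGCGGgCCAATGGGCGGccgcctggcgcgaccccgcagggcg
Hoxa11: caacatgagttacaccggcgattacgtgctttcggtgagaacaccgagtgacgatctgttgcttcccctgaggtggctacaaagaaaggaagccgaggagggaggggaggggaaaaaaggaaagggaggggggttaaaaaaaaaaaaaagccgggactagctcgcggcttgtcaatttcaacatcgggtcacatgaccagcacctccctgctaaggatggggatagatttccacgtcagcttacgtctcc
Hoxd10: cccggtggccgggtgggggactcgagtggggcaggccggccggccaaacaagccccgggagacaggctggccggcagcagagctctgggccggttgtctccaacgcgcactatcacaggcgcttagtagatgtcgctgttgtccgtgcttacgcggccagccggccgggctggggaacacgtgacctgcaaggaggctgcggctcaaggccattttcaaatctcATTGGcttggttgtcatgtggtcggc
Hoxb8: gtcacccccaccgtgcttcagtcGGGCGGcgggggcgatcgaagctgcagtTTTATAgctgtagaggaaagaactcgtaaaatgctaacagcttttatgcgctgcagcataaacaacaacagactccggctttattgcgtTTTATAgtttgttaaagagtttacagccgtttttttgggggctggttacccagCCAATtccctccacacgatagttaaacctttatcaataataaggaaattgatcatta
The promoter of Hoxa13 held 5 GC box matches and 1 CCAAT match at 80.0% G and C. That of Hoxd10 held 1 CCAAT match at 65.6% G and C, and that of Hoxa11 held none of the 3 boxes at 52.0%. That of Hoxb8 held 2 TATA box matches, 1 GC box and 1 CCAAT match at 44.4%. Of 32851 promoters of this length, 32.7% held a GC box, 33.8% a CCAAT box and 12.4% a TATA box, and the median G and C content was 52.4%. A match to the joint PBX and HOX motif (TGATTNAT, both strands), present in 2.8% of promoters, was found in none of the 6. No box was shared by all 5 promoters of genes that rose: Hoxa11 had none, Hoxd9 had 1 GC box, and Hoxd8 had 1 CCAAT box. A match is a description of these letters only.

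Hoxa13, which in the embryo acts at the tip of the limb, had 7.56, 7.80 and 7.37 CPM in HP libraries, against 1.46, 1.06 and 2.09 CPM in NP libraries. The HP libraries lay close together and all were above the highest NP library. Its log2 fold change was 2.30 ± 0.24 (edgeR adjusted p = 0.000367), and 61 of the 15347 genes tested had a larger increase. The gene lies on the minus strand of chr6:52257694-52260880 (GRCm38), shares no exonic base with another gene, and had 142 to 165 counts per HP library and 30 to 57 per NP library.

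Hoxa11, a gene of the middle limb segment, had 5.27, 6.11 and 7.01 CPM in HP libraries, against 2.57, 2.30 and 2.20 CPM in NP libraries. The diets did not overlap, and the log2 fold change was 1.38 ± 0.19 (edgeR adjusted p = 0.000835). On the opposite strand, Hoxa11os covers 34.98% of its exonic bases, and reads of the pair cannot be told apart, since the strand setting of the counting is not given in the sources used here. Hoxa11os itself had 2.52, 2.60 and 2.39 CPM in HP libraries, against 1.23, 0.779 and 1.13 CPM in NP libraries (log2 fold change 1.26 ± 0.25, with an edgeR adjusted p = 0.00362).

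The neighbouring Hoxa10 and Hoxa9 were not called, and their diets overlapped in CPM. Hoxa10 averaged 28.3 ± 2.91 CPM on HP and 26.2 ± 4.18 CPM on NP (0.11 ± 0.14, edgeR adjusted p = 0.535). Hoxa9 averaged 12.5 ± 0.998 CPM on HP and 12.1 ± 0.243 CPM on NP (0.051 ± 0.12, edgeR adjusted p = 0.732). In the authors' FPKM values the diets of Hoxa9 did not overlap, at 3.53, 4.43 and 2.79 on HP, against 5.74, 8.14 and 6.98 on NP. It was called lower on those values and with size scaling only. Directly beyond the 3′ end of Hoxa13 lies 9530018H14Rik, an entry on the same strand that is not typed as protein-coding. It had 12, 23 and 10 counts on HP, against 2, 0 and 11 on NP, and was called higher (2.19 ± 0.80, edgeR adjusted p = 0.0481). That call was lost without HP replicates 1, 2 or 3 and without NP replicates 1 or 2, at log2 fold changes of 2.38, 1.73, 2.40, 1.88 and 1.596.

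Hoxd10, the highest-numbered Hoxd gene that passed the filter, had 7.79, 6.83 and 7.94 CPM in HP libraries, against 1.38, 1.17 and 1.87 CPM in NP libraries. The diets did not overlap, and the log2 fold change was 2.35 ± 0.21 (edgeR adjusted p = 0.000245), with 57 of all genes tested above it. Its transcripts share 5.73% of exonic bases with Gm28309, which had no count in any library. Its neighbours rose less. Hoxd9 had 24.0, 21.3 and 24.8 CPM in HP libraries, against 13.4, 11.02 and 13.9 CPM in NP libraries (0.87 ± 0.13, edgeR adjusted p = 0.00101). Hoxd8 had 1270, 981 and 1165 counts in HP libraries, against 822, 762 and 926 counts in NP libraries, and averaged 56.2 ± 5.52 CPM on HP and 30.8 ± 3.50 CPM on NP (0.87 ± 0.12, edgeR adjusted p = 0.000882). Both Hoxd8 and Hoxd9 were higher in each HP library than in any NP library. Hoxd4, the tested gene at the anterior side of the cluster, averaged 0.639 ± 0.204 CPM on HP and 0.863 ± 0.271 CPM on NP and was not called (-0.43 ± 0.36, edgeR adjusted p = 0.347).

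Hoxc10, the most abundant Hox gene of the muscle and a gene of the hindlimb bud, had 90.4, 100.3 and 104.9 CPM in HP libraries, against 53.1, 32.5 and 49.4 CPM in NP libraries. Every HP library was above every NP library, and NP replicate 2 was the lowest. The log2 fold change was 1.13 ± 0.17 (edgeR adjusted p = 0.00129), and 0.94 without NP replicate 2. It made up 31.1 to 33.7% of the summed Hox CPM in HP libraries and 19.2 to 25.5% in NP libraries. Of the exonic bases of Hoxc10, 8.70% are also annotated to Hoxc5 on the same strand, and counting per gene may drop such reads. The other Hoxc genes were not called. Hoxc11 averaged 11.3 ± 1.45 CPM on HP and 9.46 ± 1.66 CPM on NP (0.26 ± 0.17), and Hoxc9 10.1 ± 1.33 CPM on HP and 8.24 ± 0.780 CPM on NP (0.29 ± 0.15). Hoxc4, Hoxc5, Hoxc6 and Hoxc8 averaged 7.66, 2.64, 5.01 and 1.514 CPM on HP, against 5.90, 3.05, 5.17 and 1.496 CPM on NP, with edgeR adjusted p values of 0.137, 0.545, 0.839 and 0.970.

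Hoxa4 was the only central Hoxa gene called. It had 3.21, 3.77 and 3.53 CPM in HP libraries, against 1.69, 1.52 and 1.76 CPM in NP libraries, with no overlap between the diets (1.08 ± 0.20, edgeR adjusted p = 0.00275). The neighbours of Hoxa4 did not pass the test. Hoxa3 averaged 2.58 ± 0.624 CPM on HP and 3.50 ± 0.551 CPM on NP (-0.45 ± 0.24), and Hoxa5 averaged 3.33 ± 0.598 CPM on HP and 3.72 ± 0.441 CPM on NP (-0.16 ± 0.21). Hoxa2 averaged 0.580 CPM on HP and 0.871 CPM on NP (-0.59 ± 0.29, edgeR adjusted p = 0.116), Hoxa6 0.898 and 1.43 CPM (-0.68 ± 0.28, edgeR adjusted p = 0.0700), and Hoxa7 8.07 and 7.54 CPM (0.096 ± 0.18, edgeR adjusted p = 0.683). Without a call, Hoxa2 and Hoxa6 were lower in every HP library than in any NP library. Of the exonic bases of Hoxa4, 16.0% are covered on the opposite strand by Gm29430, which had at most 4 counts in a library.

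No Hoxb gene was called higher, and the 2 calls of the cluster were decreases. Hoxb7 had 1.65, 2.09 and 1.402 CPM in HP libraries, against 3.07, 3.26 and 3.29 CPM in NP libraries (-0.90 ± 0.22, edgeR adjusted p = 0.00923). Hoxb8 had 0.321, 0.459 and 0.519 CPM in HP libraries, against 0.920, 1.205 and 1.13 CPM in NP libraries (-1.33 ± 0.32, edgeR adjusted p = 0.00777). The diets did not overlap in either, but Hoxb8 had only 7 to 10 counts per HP library. Just 1 HP library was above the filter's line, which uses CPM before the TMM correction. Hoxb6 (1.34 ± 0.259 CPM on HP and 2.08 ± 0.156 CPM on NP) and Hoxb4 (1.02 ± 0.217 and 1.53 ± 0.164 CPM) were lower in every HP library than in any NP library without a call, at edgeR adjusted p values of 0.0525 and 0.0961. Hoxb3, Hoxb5 and Hoxb9 averaged 0.649, 1.30 and 1.23 CPM on HP, against 0.766, 1.25 and 1.23 CPM on NP, and their diets overlapped.

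**Figure D3:**
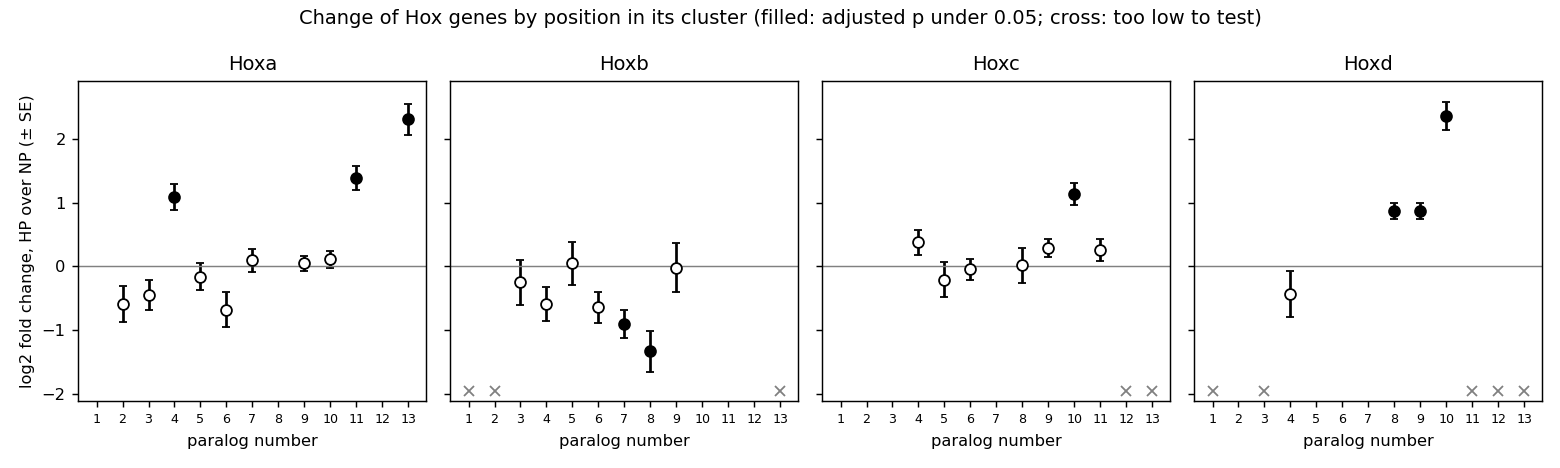
Log2 fold change of HP over NP (± SE) of the tested Hox genes against paralog number, a panel per cluster; filled points passed edgeR's test at an adjusted p under 0.05, and crosses mark genes too low to test. In Hoxa and Hoxd the largest changes stood at the posterior end of what was detected (2.30 for Hoxa13 and 2.35 for Hoxd10), whereas no tested Hoxb gene was called higher.

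Grouped by position, 0 of 3 tested anterior genes were called. Of 15 tested central genes 2 were higher (Hoxa4 and Hoxd8) and 2 were lower (Hoxb7 and Hoxb8), and of 10 tested posterior genes 5 were higher and 0 were lower. Beside the 23.0% higher and 26.3% lower of all genes tested, these are 13.3% and 13.3% of the central genes, and 50% and 0% of the posterior genes. The median log2 fold changes were -0.45, -0.16 and 0.58 for anterior, central and posterior genes. These counts and medians hold for the TMM scaling. With size scaling only and on FPKM values, the posterior gene Hoxa9 was called lower, and Hoxa10, Hoxc9 and Hoxc11 turned negative. Within paralog 10 the 3 genes differed in their values: 0.11 ± 0.14 for Hoxa10, 1.13 ± 0.17 for Hoxc10 and 2.35 ± 0.21 for Hoxd10. Within paralog 8 they ran in both directions, at 0.87 ± 0.12 for Hoxd8, 0.015 ± 0.28 for Hoxc8 and -1.33 ± 0.32 for Hoxb8. The differences between paralogs were not tested.

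Summed over all 39 genes, Hox CPM was 306 ± 21.5 in HP libraries and 198 ± 24.6 in NP libraries. This sum is dominated by the abundant genes, and no test was made on it. The gap between the diets also depends on the scaling. TMM factors were 0.795 to 0.882 in HP libraries and 1.10 to 1.29 in NP libraries, and without them the gap is smaller. The Hoxd cluster gave 26.5 to 31.3% of the sum in HP libraries and 22.6 to 23.9% in NP libraries, and the Hoxc cluster 43.5 to 45.7% in HP libraries and 36.6 to 41.4% in NP libraries. The Hoxa cluster gave 23.0 to 24.6% in HP libraries and 30.6 to 32.3% in NP libraries, and the Hoxb cluster 2.21 to 3.18% in HP libraries and 5.38 to 7.23% in NP libraries. The ranges of the diets did not overlap for any of the 4 clusters. These shares are parts of one sum, so a larger share of one cluster lowers the others, and the 4 are not separate results. The Hoxa share was lower on HP, but with TMM scaling its summed level was not. That level was 66.8, 73.3 and 81.0 CPM in HP libraries, against 63.7, 54.7 and 65.9 CPM in NP libraries. With size scaling only, the log2 fold changes of its most abundant genes, Hoxa10, Hoxa9 and Hoxa7, turned negative.

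Ratios between 2 genes of one library do not depend on how libraries are scaled to each other. The following pairs were chosen after the values were seen and are given as descriptions. Counts of Hoxa13 per count of Hoxa10 were 0.284, 0.293 and 0.233 in HP libraries, against 0.0514, 0.0497 and 0.0722 in NP libraries. Counts of Hoxd10 per count of Hoxd9 were 0.325, 0.321 and 0.321 in HP libraries, against 0.103, 0.106 and 0.134 in NP libraries. Counts of Hoxc10 per count of Hoxa10 were 3.40, 3.77 and 3.32 in HP libraries, against 1.87, 1.52 and 1.71 in NP libraries. Counts of Hoxb7 per count of its paralog Hoxa7 were 0.255, 0.237 and 0.157 in HP libraries, against 0.419, 0.505 and 0.372 in NP libraries. In none of these did the diets overlap.

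**Figure D4:**
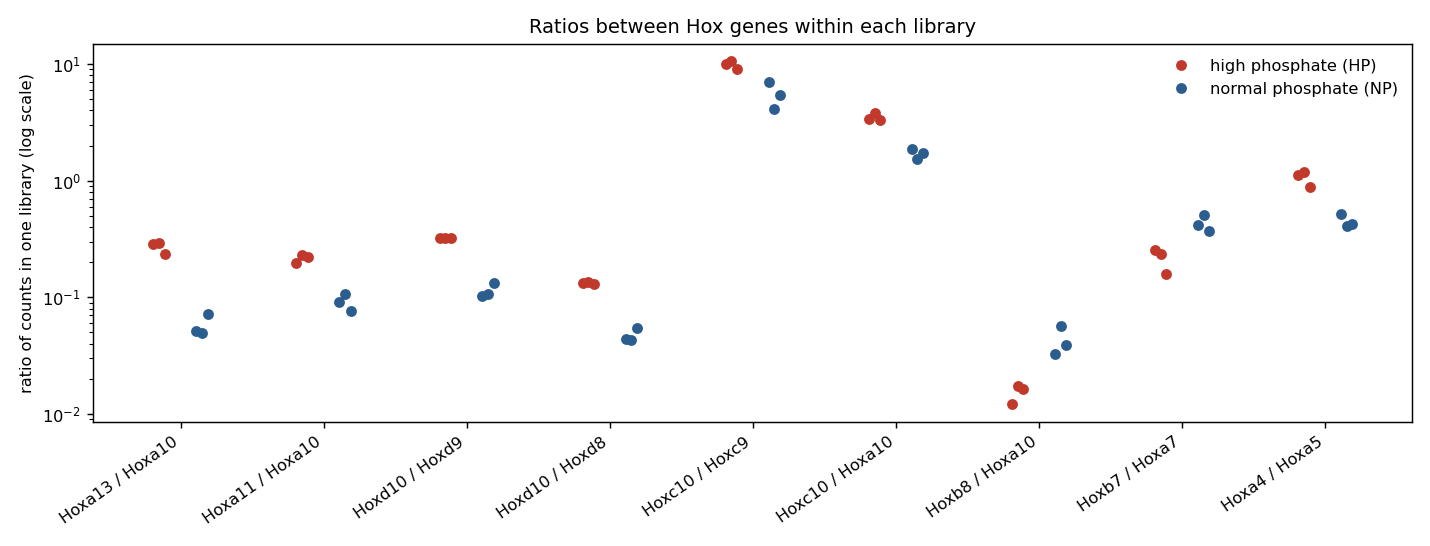
Ratio of the counts of 2 Hox genes within each library (log axis) for 9 pairs, HP points left of NP points. The diets are apart in each pair; Hoxd10 per Hoxd9 lies at 0.321 to 0.325 in HP libraries and 0.103 to 0.134 in NP libraries.

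All 9 calls kept their direction and stayed under an adjusted p of 0.05 in each of 15 alternatives. Their size depended on the scaling and on the values used (counts or FPKM). The median over all genes tested stood at -0.49 when libraries were scaled by their size only, and at -0.29 for the authors' FPKM values as log2(FPKM + 1). With size scaling only, 7 Hox genes were higher and 8 lower, against 5.72% and 51.4% of all genes, or 57.1% in both directions. That is 25% of the 28 Hox genes higher, 28.6% lower and 53.6% in both directions. On the log2(FPKM + 1) scale, 7 were higher and 8 lower as well, against 4.72% and 36.8% of all genes, or 41.6% in both directions; with a pseudocount of 0.1 all genes stood at 4.85% and 39.0%, or 43.8%. The Hox shares were the same 25%, 28.6% and 53.6% for both pseudocounts. On FPKM values Hox genes were thus called more often than all genes. With size scaling only and on both FPKM scales they were called higher more often than all genes. An adjusted p under 0.1 was met by 12 of the 28 and by 58.5% of all genes. The shares of all genes called under the remaining alternatives were 49.6% (DESeq2 size factors), 27.7% (no filter), 52.0% (1 CPM in 3 libraries), 47.7% (replicate block), 48.7% (DESeq2) and 48.8% (limma-voom). They were 38.6%, 40.2% and 39.2% without HP replicates 1, 2 and 3, and 47.9%, 41.7% and 43.6% without NP replicates 1, 2 and 3. The share of Hox genes called was 26.5% of 34 tested with no filter, 40% of 25 with 1 CPM in 3 libraries, and 35.7% of 28 with limma-voom. It was 30%, 33.3% and 30% of 30 without HP replicates 1, 2 and 3, and 33.3% of 30 without NP replicate 1. Under the rest of these alternatives it was 32.1% of 28. The increases in Hoxa13 and Hoxd10 were 1.84 and 1.88 with size scaling only and 1.16 and 1.15 on the log2(FPKM + 1) scale, which shrinks changes of low genes. Hoxd8 and Hoxd9 both stood at 0.40 with size scaling only.

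**Figure D5:**
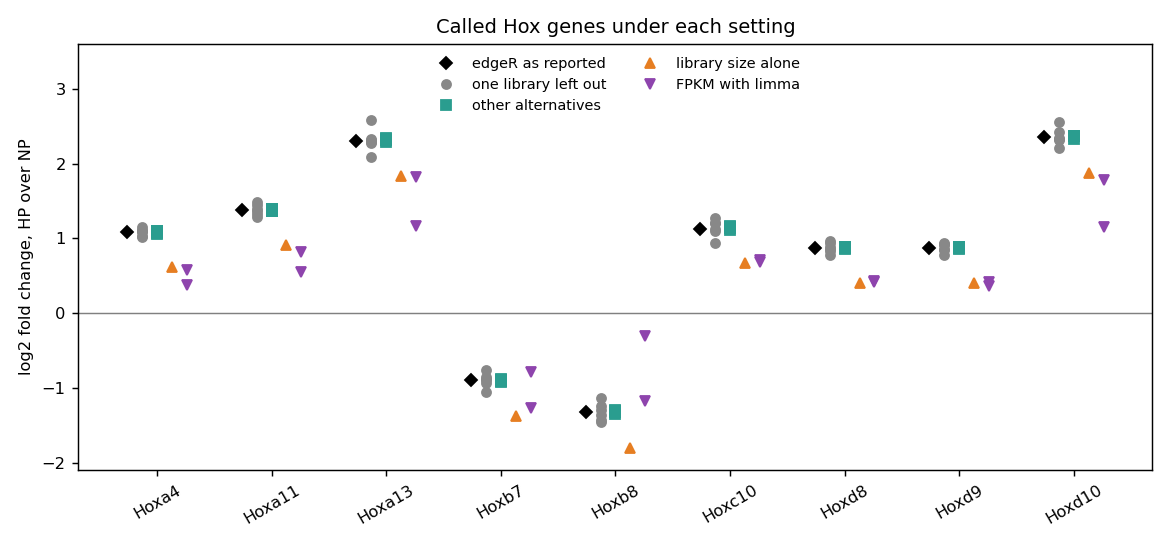
Log2 fold change of HP over NP of the 9 called Hox genes under the edgeR fit as reported, with one library left out, with size scaling only, on FPKM values with limma at 2 pseudocounts, and under other alternatives. No point crosses 0; the smallest increase was 0.36 for Hoxd9 and the smallest decrease -0.31 for Hoxb8, both on FPKM values.

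Hox proteins bind DNA together with cofactors of the TALE class of homeodomain proteins. Of 9 tested cofactor genes, 2 were higher and 2 lower (44.4% called, against 49.3% of all genes; median log2 fold change 0.073). Pbxip1, which encodes a protein that binds PBX, was higher at 469 ± 32.7 CPM on HP and 213 ± 25.1 CPM on NP (1.14 ± 0.15, edgeR adjusted p = 0.000723). Pknox2 was higher too, at 43.5 ± 2.77 CPM on HP and 29.5 ± 5.52 CPM on NP (0.56 ± 0.14), but was not called with size scaling only (0.093), and its sign turned for log2(FPKM + 1) values (-0.017). Meis3 (2.71 ± 0.320 CPM on HP and 5.74 ± 1.02 CPM on NP, -1.08 ± 0.20) and Meis2 (2.23 ± 0.572 and 4.38 ± 0.475 CPM, -0.97 ± 0.23) were lower. Meis1 averaged 5.48 ± 0.892 CPM on HP and 4.04 ± 0.403 CPM on NP and was not called (0.44 ± 0.18, edgeR adjusted p = 0.0739).

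Genes that mark limb identity had few counts. Tbx4, the T-box gene of the hindlimb bud, averaged 3.72 ± 1.12 CPM on HP and 4.70 ± 0.493 CPM on NP (-0.34 ± 0.24, edgeR adjusted p = 0.258). Its forelimb relative Tbx5 had 1 to 3 counts per HP library and 2 to 4 per NP library, below the filter. Pitx1, which specifies the hindlimb, had 9, 6 and 5 counts on HP, against 10, 27 and 21 on NP, and was not tested. Of 32 tested genes of limb position and patterning, 8 were higher and 14 lower (68.8% called, against 49.3% of all genes; median log2 fold change -0.68). Barx2, a homeobox gene of muscle differentiation, was higher (5.38 ± 0.651 CPM on HP and 1.17 ± 0.322 CPM on NP, 2.20 ± 0.25), as was Six2 (18.6 ± 5.60 and 4.97 ± 1.06 CPM, 1.90 ± 0.24). Twist1 (2.28 ± 0.364 CPM on HP and 5.89 ± 0.772 CPM on NP, -1.37 ± 0.20) and Zeb2 (44.8 ± 9.88 and 91.6 ± 6.33 CPM, -1.03 ± 0.16), transcription factors of mesenchymal cells, were lower.

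Polycomb and Trithorax proteins keep Hox clusters closed or open. Of 39 tested genes of these regulators, 4 were higher and 5 lower (23.1% called, against 49.3% of all genes; median log2 fold change 0.034). The Polycomb genes Phc1 (0.70 ± 0.13) and Pcgf5 (0.76 ± 0.15) were higher and Pcgf2 (-1.21 ± 0.19) was lower. Dot1l, a methyltransferase of histone H3, was lower (-0.51 ± 0.11). With size scaling only, Phc1 (0.24) and Pcgf5 (0.31) were not called, nor were they for log2(FPKM + 1) values (0.13 and 0.089). Retinoic acid induces Hox genes in the embryo: of 16 tested genes of its pathway 5 were higher and 7 lower (75% called, against 49.3% of all genes; median log2 fold change -0.39). The carrier Rbp4 (-2.30 ± 0.18) and the receptor Rarg (-0.68 ± 0.099) were lower, and the receptor Rxrg (1.399 ± 0.21) was higher. Of 45 genes in or named for the clusters but not typed protein-coding, 9 were tested and 3 called (33.3%, against 49.3% of all genes). Besides Hoxa11os and 9530018H14Rik, the third called was Halr1. It was lower at 10, 16 and 9 counts on HP and 50, 34 and 43 on NP (-1.43 ± 0.34, edgeR adjusted p = 0.00740). Hotair, a noncoding RNA of the Hoxc cluster, had 44, 11 and 28 counts on HP, against 46, 51 and 43 on NP, and was not called (-0.34 ± 0.39, edgeR adjusted p = 0.483).

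Markers of several cell types moved between the same libraries. In whole muscle, fewer cells of a type and less RNA per cell cannot be told apart. Of 15 fibroblast and fibro-adipogenic progenitor markers 0 were higher and 14 lower, and their summed level ran from 2703 to 2981 CPM in HP libraries and from 5261 to 11519 CPM in NP libraries. Pdgfra averaged 71.1 ± 14.4 CPM on HP and 124 ± 12.1 CPM on NP, and Dcn 1380 ± 189 CPM on HP and 2018 ± 148 CPM on NP. Of 10 tendon markers 5 were lower (summed 379 to 520 CPM on HP and 624 to 973 CPM on NP), with Tnmd at 12.5 ± 3.52 CPM on HP and 56.9 ± 35.1 CPM on NP. All 10 white adipocyte markers were lower (2825 to 4275 CPM on HP and 6626 to 7912 CPM on NP), Adipoq among them at 44.3 ± 10.9 and 201 ± 33.7 CPM. The most abundant marker gave most of this sum. Without that marker it was 596 to 1021 CPM on HP and 2470 to 3129 CPM on NP. Of 10 fast fibre markers 7 were higher and 0 lower (155616 to 205233 CPM on HP and 63433 to 90909 CPM on NP), and of 10 slow fibre markers 8 were lower (987 to 1478 CPM on HP and 2406 to 3519 CPM on NP). Myh4, the fastest myosin and one of the fast fibre markers, averaged 53360 ± 15030 CPM on HP and 16866 ± 3652 CPM on NP. No marker in these lists was at 0 in all libraries. Their part in the Hox changes was not tested.

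Of the other lists, macrophage markers (1 higher and 10 lower of 11; 397 to 589 CPM on HP and 1051 to 1994 CPM on NP), B cell markers (8 of 8 lower; 1.10 to 2.45 and 11.5 to 77.9 CPM) and T cell markers (8 of 8 lower; 0.831 to 2.19 and 11.1 to 39.1 CPM) were lower on HP. Endothelial markers were lower in 8 of 10 (638 to 914 CPM on HP and 992 to 1133 CPM on NP), with Pecam1 at 137 ± 27.2 CPM on HP and 204 ± 26.6 CPM on NP. Pericyte and smooth muscle markers were higher in 1 and lower in 4 of 10 (1308 to 1602 CPM on HP and 1724 to 1865 CPM on NP). Without the most abundant marker the sums of the diets overlapped, at 843 to 924 CPM on HP and 913 to 998 CPM on NP. Satellite cell markers were higher in 2 (Cdh15 and Des) and lower in 4 (Vcam1, Fgfr4, Pax7 and Megf10) of 10. Their sum of 4555 to 4828 CPM on HP and 1700 to 2383 CPM on NP was almost all Des, which muscle fibres also express; without Des it was 74.7 to 86.9 CPM on HP and 77.7 to 94.3 CPM on NP. The rule did not call for naming these satellite cell genes, and they were picked with their values known. Schwann cell markers were lower in 1 of 10 (247 to 368 CPM on HP and 267 to 333 CPM on NP).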

How the data were processed

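Total RNA of gastrocnemius was taken with TRIzol and made into Illumina libraries, 3 per diet, per the labels' protocols. The authors deposited raw counts for each Ensembl gene and a table of FPKM values. The submitters' processing notes name DESeq2 1.6.3, featureCounts 1.4.6, HISAT2 2.0.1, Trim Galore 0.4.1 and the build GRCm38, without their roles. Not given in the sources used here are the annotation release, the strand setting and the tool that made the FPKM values. Libraries held 21856006 to 27474251 counts, and NP replicate 2 stood apart on the first principal component (75.4, against 36.5 and 43.8 for the other NP libraries and -53.0 to -51.1 for HP). Between libraries of one diet the chi-square of the counts per degree of freedom was 11.6 to 36.2, so none was a copy of another.

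Counts were tested with edgeR 4.0.16 (R 4.3.3): filterByExpr, TMM, robust quasi-likelihood F test, Benjamini-Hochberg adjustment over 15347 genes, called at an adjusted p under 0.05. The SE was the size of the log2 fold change divided by the square root of F, which is approximate. Positions and overlaps came from GENCODE M21 (GRCm38), which holds 99.2% of the table's gene IDs and all 39 Hox genes. Shared exonic bases were counted over all annotated transcripts. Alternatives were DESeq2 size factors, library size alone, no filter, 1 CPM in 3 libraries, a replicate block, leaving out each library, DESeq2 1.42.0, limma-voom (limma 3.58.1), and limma on log2(FPKM + 1) and log2(FPKM + 0.1) over the genes tested by edgeR. The members and lists were chosen with earlier results of these data known. The rule named every Hox gene; of each function list, the 4 called genes of smallest p, and 6 set genes; of cell type lists, 6 set genes. Some genes under this rule are not reported here. Hotair was named after its value was seen, and levels per kilobase of exon were an alternative added after the data were seen. RefSeq promoters matched 22 of the 39 genes by symbol.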

Additional observations from a re-analysis of the deposited data

How the results depend on the processing

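The 9 Hox calls (7 higher, 2 lower) were made again under DESeq2 size factors, with no filter, with DESeq2 and with the replicate block, all at 9 calls. That was 9 of 34 Hox genes tested with no filter and 9 of 28 under the others. Leaving out each library gave 9 to 10 calls. Hoxb6 was called lower as well without HP replicate 2, with limma-voom and with the 1 CPM filter, at 10 calls each; without NP replicate 1 the added lower call was a gene that was not tested in the full data. Library size alone, log2(FPKM + 1) and log2(FPKM + 0.1) each gave 15 calls, 8 of them lower, and an adjusted p under 0.1 gave 5 lower. Over all genes, 3528 were higher and 4035 lower; with library size alone 878 were higher and 7886 lower, and 725 and 744 were higher on the log2(FPKM + 1) and log2(FPKM + 0.1) scales. Same-numbered libraries of the diets did not deviate together (correlations of -0.021, 0.022 and 0.019). That gave no sign that the numbers pair the samples, but with 3 libraries per diet it cannot exclude pairing. The replicate block gave 7328 calls over all genes, against 7563 without it.

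No called Hox gene turned in sign, but uncalled Hox genes, Meis1 and the called Pknox2 did under some settings. With library size alone the signs turned for Hoxa7 (-0.37), Hoxa9 (-0.42), Hoxa10 (-0.35), Hoxb5 (-0.43), Hoxc4 (-0.084), Hoxc8 (-0.47), Hoxc9 (-0.19), Hoxc11 (-0.21) and Meis1 (-0.040). With log2(FPKM + 1) and log2(FPKM + 0.1) they turned for Hoxa3 (0.13 and 0.21), Hoxa7 (-0.16 and -0.20), Hoxa9 (-0.80 and -0.95), Hoxa10 (-0.19 and -0.21), Hoxb5 (-0.073 and -0.15), Hoxc5 (0.14 and 0.18), Hoxc8 (-0.32 and -0.67), Hoxc9 (-0.44 and -0.64), Hoxc11 (-0.17 and -0.20) and Pknox2 (-0.017 and -0.019). Hoxa9 was called lower in all 3 of these. Leaving out one library turned Hoxa7 (-0.0069) and Hoxa10 (-0.019) without NP replicate 2, Hoxb5 without HP replicate 3 (-0.15) or NP replicate 1 (-0.13), Hoxb9 without HP replicate 1 (0.31) or NP replicate 1 (0.25), Hoxc6 without HP replicate 1 (0.060), and Hoxc8 without HP replicate 3 (-0.015) or NP replicate 1 (-0.19). The 1 CPM filter turned Hoxc8 (-0.0035). Leaving out single libraries moved Hoxb5 between -0.15 and 0.29, and Hoxc8 between -0.19 and 0.17. The cause of these turns was not tested. Depth limits the genes under 1 CPM most, Hoxb8 among the called ones.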
